A study of Mus musculus with 294 samples.

Results

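The 9 genes described here carry, hold back or answer the bone morphogenetic protein (BMP) signal: the ligand gene Bmp4, the receptor genes Bmpr1a and Bmpr2, the inhibitor gene Smad6, and the targets Id1, Id2, Id3, Msx1 and Msx2. They were taken by name, and all 9 were among the 15124 genes of a raw count table of single cells from the embryonic mouse heart. Levels are in CPM, a gene's reads as a part of all reads of its cell, times 1000000. A gene is called detected in a cell at 10 CPM or more.

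The cells came from the region around the aorticopulmonary septum of the outflow tract, at ages from E11.5 to E17.5 (days of embryonic development), with E12.5 and E14.5 between them. Every cell carried the same Wnt1-Cre; R26-EYFP genotype and was sorted as EYFP-positive, so there was 1 group and no control. Cre recombinase driven by Wnt1 switches on the yellow fluorescent reporter in the neural crest and in all descendants of those cells, so the reporter gives lineage and not present state. Among the markers of crest origin, Wnt1 was detected in 3 cells, Pax3 in 1, Foxd3 in 9, Sox10 in 14 and Tfap2a in 45 (15.3%). Mesenchymal markers were detected in 58.2% of cells for Dcn, the lowest of their list, to 99.7% for Col3a1.

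No label gives the age, animal or chip of a cell, so the group counts as 1 sample and no test between cells was possible. Cells were set apart only by the first digit of their name, which runs from 1 to 7 and forms 7 name series of 58, 48, 38, 38, 34, 34 and 44 cells. What the digit stands for is not stated, so these series are no study groups. Total reads per cell lay between 34046 and 3033857, with a median of 1204543. Series 1 had a median of 7718 genes with a read and the other series had medians of 3123 to 4676.5. Intervals beside shares are exact Clopper-Pearson 95% intervals, which cover counting error only.

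BMP ligands bind paired type I and type II receptors at the cell surface, and the type I receptor then phosphorylates Smad1, Smad5 or Smad9. These join Smad4, enter the nucleus and raise target genes, among them the Id genes, which encode inhibitors of basic helix-loop-helix factors, the homeobox genes Msx1 and Msx2, and Smad6, which feeds back on the receptor. In the outflow tract the pathway is known for its part in cushion growth and septation, to which neural crest cells contribute.

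Promoters of 3 targets are shown because Smad proteins act on such sequence, and because the targets differed in which Smad-type letters they hold. RefSeq promoter sequence on GRCm38.p6 was matched for 8 of the 9 genes, with Id1 the exception, and each window runs from 250 bases before the transcription start to 20 after it. Capitals mark GTCTAGAC, the palindromic Smad binding element, in Smad6 (chr9:64022040-64022309, minus strand) and GGCGCC, a GC-rich Smad element, in Id2 (chr12:25096073-25096342, minus strand). Id3 (chr4:136143572-136143841, plus strand) held neither and has no capitals.
Smad6: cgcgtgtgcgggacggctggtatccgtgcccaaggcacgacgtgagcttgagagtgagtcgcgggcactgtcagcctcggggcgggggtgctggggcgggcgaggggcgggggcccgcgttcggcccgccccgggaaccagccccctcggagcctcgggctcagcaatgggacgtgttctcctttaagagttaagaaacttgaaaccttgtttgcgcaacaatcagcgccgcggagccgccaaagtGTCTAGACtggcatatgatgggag
Id2: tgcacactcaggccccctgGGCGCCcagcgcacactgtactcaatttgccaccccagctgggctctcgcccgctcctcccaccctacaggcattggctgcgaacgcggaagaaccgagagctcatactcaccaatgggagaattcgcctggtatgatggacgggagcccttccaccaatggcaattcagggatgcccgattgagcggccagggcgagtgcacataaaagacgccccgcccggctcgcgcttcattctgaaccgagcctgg
Id3: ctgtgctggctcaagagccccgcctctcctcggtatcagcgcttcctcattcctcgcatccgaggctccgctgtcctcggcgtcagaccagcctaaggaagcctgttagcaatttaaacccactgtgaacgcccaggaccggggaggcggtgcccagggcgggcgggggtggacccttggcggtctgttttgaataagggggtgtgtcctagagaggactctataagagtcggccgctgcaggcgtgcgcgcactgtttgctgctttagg

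GTCTAGAC began 4 bases before the start of Smad6. Both strands were searched, and this motif was in 60 of 32851 promoters of the same length (0.183%). GGCGCC lay at the far end of the Id2 window, was also in the windows of Bmpr1a and Bmpr2, and was in 10.4% of all promoters. GTCT, which lies inside GTCTAGAC, was in 85.2% of them, and in the windows of Smad6, Id2 and Id3. Like Id3, the windows of Bmp4, Msx1 and Msx2 held neither GTCTAGAC nor GGCGCC. A match describes letters only, and no binding was measured.

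Scaled to exon length, the 3 Id genes had the highest levels of the set and the Msx genes the lowest. Levels of different genes are compared here as mean CPM per kilobase of exon, from GENCODE M21 on GRCm38. On that scale Id3 stood at 872, Id2 at 342 and Id1 at 145.9. Bmp4 followed at 48.4, Bmpr1a at 34.5, Smad6 at 26.9 and Bmpr2 at 11.6. Msx2 at 6.27 and Msx1 at 1.48 came last. The order Id3, Id2, Id1, Bmp4 held in all 7 name series. The neighbours Bmp4 and Bmpr1a kept their order in 5 of 7 series, and so did Msx2 and Msx1. Bmpr1a and Smad6, Smad6 and Bmpr2, and Bmpr2 and Msx2 each kept theirs in 6. Without length scaling, Bmpr1a and Bmpr2 had means of 219.3 and 208.8 CPM, above Id1 at 169.2 CPM. The place of Bmp4 also depended on the use of means. By median CPM per kilobase over all cells it stood at 0.214, below Bmpr1a at 13.3, Smad6 at 7.49 and Bmpr2 at 1.70. Every cell had at least 1 of the 9 genes, the median was 5 per cell, and 1 cell had all 9.

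**Figure D1:**
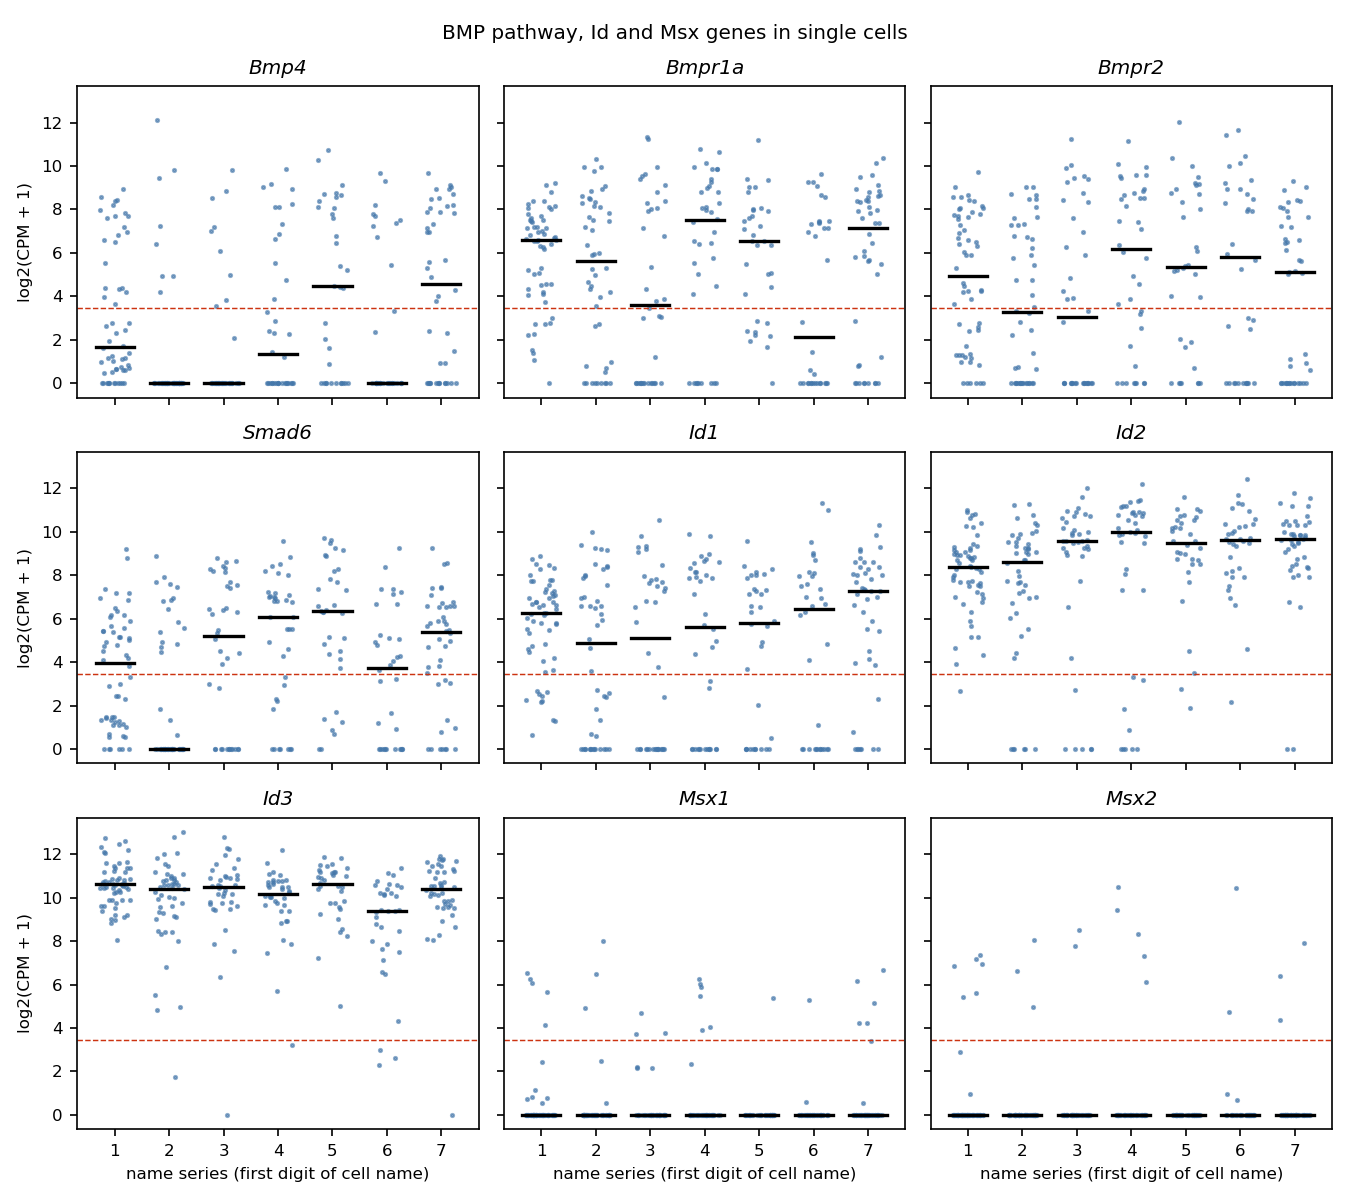
Level of each of the 9 genes in every cell, as log2(CPM + 1), by name series. Points are cells, black bars are medians of the series and the dashed line is 10 CPM. Id3 lies above the line in nearly every cell and Msx1 and Msx2 lie at 0 in most.

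Bmp4 (ENSMUSG00000021835.15, chr14:46383520-46390669, minus strand), the only ligand of the set, was detected in 36.1% of cells (30.6% to 41.8%). Its level ran from 0 through a median of 0.482 to 4413 CPM, and the 10% of cells with most held 68.02% of its summed CPM. The series medians were 2.18, 0, 0, 1.52, 21.04, 0 and 23.6 CPM for series 1 to 7. Series 5 and 7 had the highest medians and most cells of the other series were below detection, although the ranges of the series overlapped. The share of cells with Bmp4 was lowest in series 2 at 16.7% (7.48% to 30.2%) and highest in series 7 at 56.8% (41.03% to 71.7%). With cells thinned to 203620 reads each, those shares were 11.6% and 53.5%. The mean did not follow the share, since series 2 held the cell at 4413 CPM and had a mean of 131.4 CPM against 144.4 in series 7.

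Bmp4 overlaps the opposite-strand genes Gm15217 and Gm15222 in the annotation. Whether the counting used strand is not given in the sources used here, so it is not known whether reads from the overlapping stretches were told apart.

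Bmpr1a (ENSMUSG00000021796.15, chr14:34410734-34503341, minus strand), a type I receptor, was detected in 68.7% of cells (63.1% to 73.97%), from 0 through a median of 84.5 to 2540 CPM. Bmpr2 (ENSMUSG00000067336.6, chr1:59763400-59879014, plus strand), the type II receptor, was detected in 57.5% (51.6% to 63.2%), from 0 through a median of 30.6 to 4173 CPM. Series medians of Bmpr1a were 94.4, 49.01, 11.3, 179.7, 93.4, 3.87 and 141.5 CPM, and those of Bmpr2 were 31.05, 8.80, 7.54, 73.2, 40.01, 55.1 and 33.4 CPM. Bmpr1a was low in series 3 and 6 while Bmpr2 was low in series 2 and 3, and both were highest by median in series 4. Series overlapped for both genes.

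The receptors were detected together in 40.1% of cells (34.5% to 45.99%), and the product of their shares within series was also 40.1%. Either was detected in 86.1% (81.6% to 89.8%). Their levels had a median Spearman's correlation within series of 0.0041, with values from -0.16 to 0.24. All 3 of Bmp4, Bmpr1a and Bmpr2 were found in 56 cells, 19.05% (14.7% to 24.01%), beside a product of 15.2% that lies inside the interval. Bmpr1a shares exon sequence with the antisense gene Gm17110, and Bmpr2 overlaps Gm38125 on its own strand. Neither overlapping gene was analysed here.

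Smad6 (ENSMUSG00000036867.7, chr9:63953076-64022059, minus strand), which blocks BMP receptor signalling inside the cell, was detected in 58.5% of cells (52.6% to 64.2%). Its level ran from 0 through a median of 24 to 835 CPM, with series medians of 14.7, 0, 36.02, 66.4, 79.6, 12.5 and 40.96 CPM. It was high in series 5 and 4 and low in series 2, where most cells had less than 10 CPM. The share was 33.3% (20.4% to 48.4%) in series 2 and 79.4% (62.1% to 91.3%) in series 5, and the means were 41.1 and 194.5 CPM. Thinned to equal reads, the shares were 27.9% and 78.8%. This span of 46.1 percentage points was the widest of the 9 genes, whose spans began at 8.82 for Id3. The median span over the 8853 genes detected in at least 10% of cells was 26.2. Which property of the name series moves with Smad6 was not tested, beyond the depth that thinning makes equal.

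Id1 (ENSMUSG00000042745.9, chr2:152736251-152737410, plus strand) was detected in 66.7% of cells (60.96% to 72.03%), from 0 through a median of 75 to 2596 CPM. Id2 (ENSMUSG00000020644.9, chr12:25093799-25097140, minus strand) was detected in 90.8% (86.9% to 93.9%), from 0 through a median of 610 to 5587 CPM. Id3 (ENSMUSG00000007872.3, chr4:136143497-136145755, plus strand) was detected in 97.6% (95.2% to 99.04%), from 0 through a median of 1356 to 8352 CPM. Id3 was also the most even of the set, with 28.5% of its summed CPM in the 10% of cells with most.

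Series medians of Id1 were 76.02, 28.6, 38.2, 47.9, 55.5, 87.5 and 151.9 CPM, so that series 7 was high and series 2 low. Those of Id2 were 328, 393, 761, 1002, 708.5, 785 and 806 CPM, with series 1 and 2 below the rest. Those of Id3 were 1555, 1361, 1440, 1150, 1568, 657 and 1353 CPM, with series 6 below the rest. The ranges of all series overlapped for each of the 3 genes. All 3 were detected in 62.9% of cells (57.1% to 68.5%), beside a product of 59.8%, and at least 1 in 99.3%.

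Shares and mean levels gave different orders for series 1. Bmpr1a, Id1 and Id2, 3 of the 9 genes, had their highest share of cells in series 1, against 48.9% of the 8853 genes. Their mean levels there were 126.6, 109.9 and 485.3 CPM, the lowest of any series for each. By median, series 1 was lowest only for Id2, at 328 CPM. Its medians of 94.4 CPM for Bmpr1a and 76.02 CPM for Id1 were above the lowest, 3.87 CPM in series 6 and 28.6 CPM in series 2. In series 1 the cell with least Id2 still had 5.32 CPM and that with least Id3 had 260.2 CPM. No order of the series is read from these shares. Leaving out series 1 moved the shares of the 9 genes to 35.6% for Bmp4, 65.3% for Bmpr1a, 62.7% for Id1 and 88.98% for Id2, each inside its interval for all cells.

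The Id genes had the highest correlations of the set from cell to cell within name series. Id1 and Id2 had Spearman's correlations of log2(CPM + 1) of 0.02, 0.49, 0.37, 0.55, 0.11, 0.28 and 0.59 in series 1 to 7, with a median of 0.37. The values were above 0 in all 7 series, but series 1 was close to 0 and series 4 and 7 were highest. Id1 and Id3 had a median of 0.29, from 0.10 in series 1 to 0.46 in series 3. Id2 and Id3 had a median of 0.33, above 0 in 6 series and at -0.06 in series 1. Cells of a series share library steps and depth, so these values are descriptions and carry no p.

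**Figure D2:**
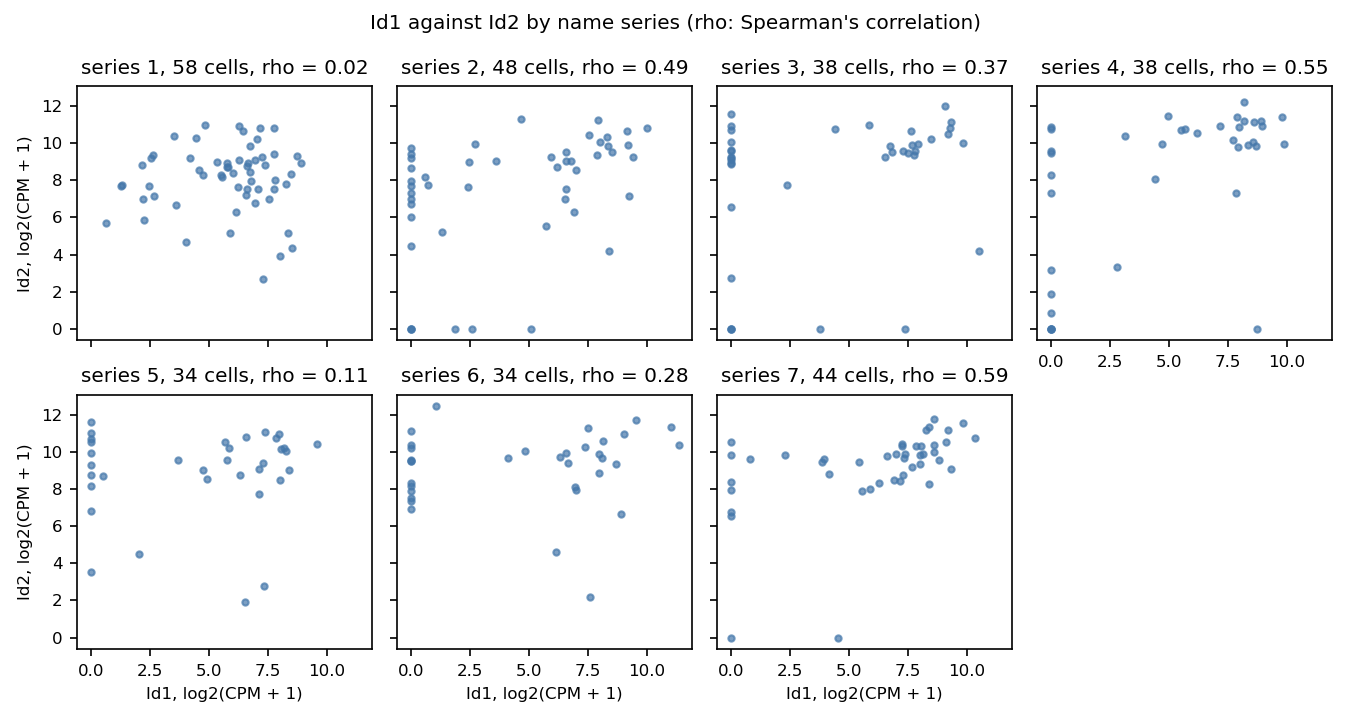
Id1 (horizontal) against Id2 (vertical) as log2(CPM + 1) in the cells of each name series, with Spearman's rho above each panel. Cells without Id1 often still have Id2, and rho runs from 0.02 in series 1 to 0.59 in series 7.

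Among the 8852 other genes detected in at least 10% of cells, Id2 had the highest median correlation with Id1, and Id1 the highest with Id2. Id3 came second for both Id1 and Id2. In the other direction, Id2 ranked at 1 and Id1 at 5 for Id3. Given total reads and the number of genes with a read, the partial correlations had medians of 0.38 for Id1 with Id2, 0.29 for Id1 with Id3 and 0.31 for Id2 with Id3. Over all cells as 1 set, the 3 values were 0.36, 0.30 and 0.18. No stretch of 50 bases is shared between the transcripts of the 3 Id genes, so a read of that length matches at most 1 of them exactly.

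Msx1 (ENSMUSG00000048450.10, chr5:37820485-37824583, minus strand) was detected in 24 cells, 8.16% (5.30% to 11.9%), with a highest level of 255.2 CPM. Msx2 (ENSMUSG00000021469.9, chr13:53466884-53473074, minus strand) was detected in 21 cells, 7.14% (4.48% to 10.7%), with a highest level of 1441 CPM. Where detected, the median level was 42.2 CPM for Msx1 and 141.8 CPM for Msx2. Both had a median of 0 in every series. Their highest shares were in series 4, at 15.8% and 13.2%. Msx2 was detected in 0 of the 34 cells of series 5, which allows a share of up to 10.3% by the exact interval. Both were found together in 5 cells, 1.70% (0.554% to 3.92%), where the product gives 0.698%. Either was found in 13.6%.

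Of the 36 pairs among the 9 genes, 31 were detected together in more cells than the product of their shares within series. Over all pairs of a member with another gene that share was 70.9%. The differences from the product ran from -0.63 to 2.50 percentage points. For all 36 pairs the product lay inside the exact interval of the joint share, so no excess is read from the count of 31. The joint share cannot exceed that of the rarer gene, which leaves little room above the product for genes found in most cells, so the odds ratio pooled over series is given for the Id genes. It was 3.76 for Id1 with Id2, 4.00 for Id1 with Id3 and 6.21 for Id2 with Id3, as a description with no test. The ratio did not set the Id pairs apart, since it was 10.9 for Bmpr1a with Id3 and 3.58 for Msx1 with Msx2. Id3 was detected in 97.6% of cells, so ratios with Id3 rest on the few cells without it. The correlation was above 0 in every series for 3 pairs, Id1 with Id2, Id1 with Id3 and Smad6 with Id2, against 1.74% of all pairs of a member with another gene. Smad6 with Id2 had a median of 0.16, from 0.06 in series 5 to 0.30 in series 6, and a partial median of 0.19. Outside the Id genes, the medians lay between -0.11 and 0.19, the highest being Bmpr1a with Msx2.

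**Figure D3:**
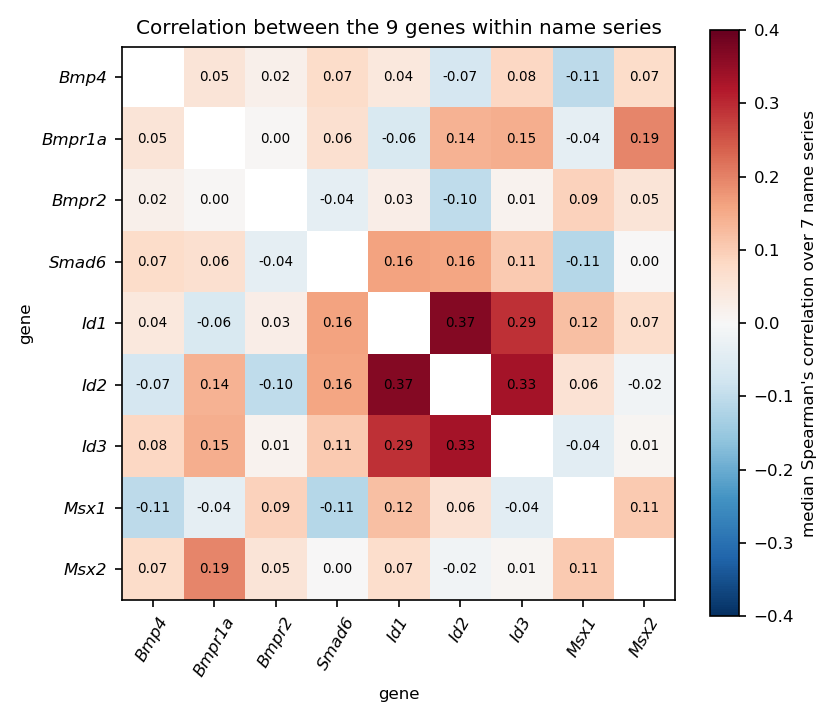
Median over the name series of Spearman's correlation of log2(CPM + 1) for each pair of the 9 genes, printed in the square and coloured from -0.4 to 0.4. The 3 Id pairs are the darkest squares, at 0.29 to 0.37.

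Acta2 encodes smooth muscle actin and Sox9 a transcription factor of cartilage and valve mesenchyme; they were detected in 61.9% and 85.4% of cells. Bmp4 was the member whose correlation with Acta2 was above 0 in every series. Its values were 0.02, 0.09, 0.18, 0.53, 0.13, 0.36 and 0.45 in series 1 to 7, high in series 4 and 7 and near 0 in series 1. Of all tested genes, 4.41% were above 0 with Acta2 in every series, against 1 of the 9. Bmp4 also moved with total reads, at a median correlation of 0.26. Given reads and genes, its partial correlation with Acta2 had a median of 0.14 and was above 0 in 6 series. Bmp4 and Acta2 were detected together in 78 cells, 26.5% (21.6% to 31.97%), with a product of 22.6%.

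The other members had lower median correlations with Acta2. The median was above 0 for 7 of the 9 genes, near the 69.7% of all tested genes, and the medians other than that of Bmp4 lay between -0.20 for Msx1 and 0.08 for Id3. Msx1 had values from -0.30 to 0.18 and was below 0 in 4 series. Detection together with Acta2 exceeded the product for 6 of the 9 genes, beside 71.1% of tested genes. Smad6 and Acta2 were both found in 38.8% of cells (33.2% to 44.6%), where the product was 35.4%.

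With Sox9, 7 of the 9 genes had a median above 0, against 45.7% of all tested genes, and the medians were small, from -0.08 for Msx1 to 0.11 for Smad6. None was above 0 in every series, as 0.542% of tested genes were. The count of 7 rested on single series, since it was 3 without series 4, 4 without series 2 and 5 without series 1. The median changed sign under at least 1 alternative for 7 of the 9 genes, Msx1 among them, and with Acta2 for 3 of the 9. Bmp4 with Sox9 ran from -0.25 in series 3 to 0.45 in series 5. Detection together with Sox9 exceeded the product for 6 of the 9, beside 63.8% of tested genes. Of the 24 cells with Msx1, 23 also had Sox9, where the product gives 20.8.

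**Figure D4:**
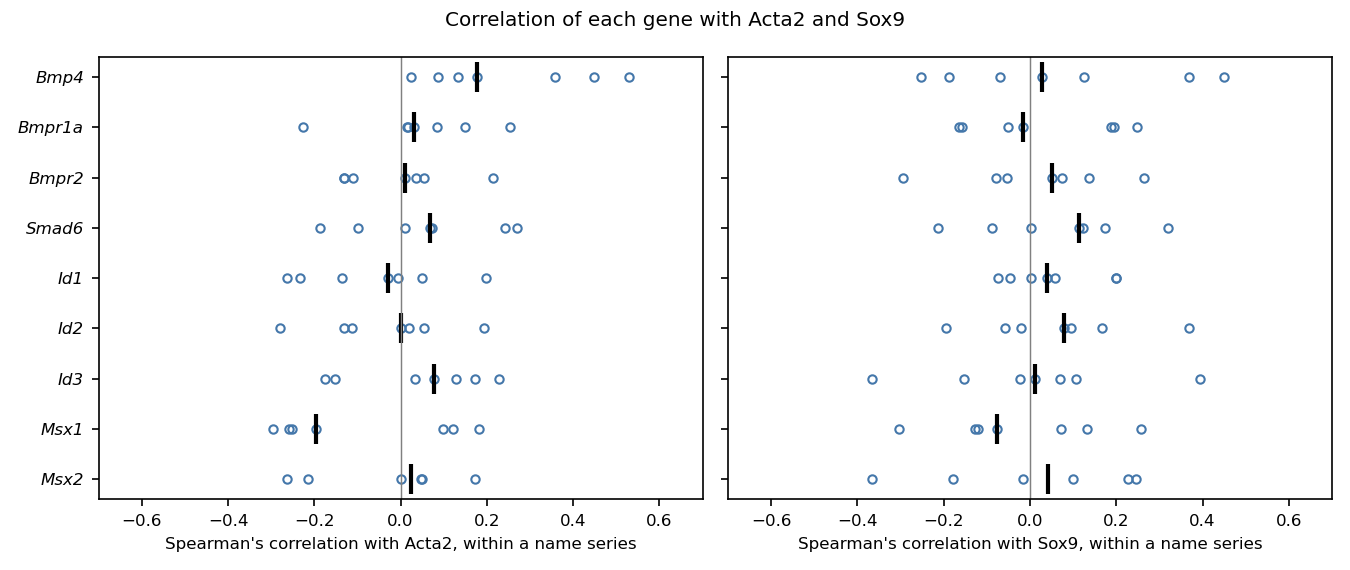
Spearman's correlation of each of the 9 genes with Acta2 (left) and Sox9 (right) within a name series; circles are series and bars are their medians. The circles of Bmp4 with Acta2 all lie right of 0, and those with Sox9 lie on both sides for every gene.

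Other smooth muscle markers were set beside Bmp4 and Msx1. With Acta2, which is on the list, 69.7% of all tested genes had a median above 0. No such share was taken for the other markers, so the counts below have no background beside them. The median correlation of Bmp4 was above 0 with all 7 markers of the list, from 0.03 with Myh11 to 0.29 with the contractile gene Cnn1. Single series still ran the other way for 6 of the 7, down to -0.18 for Cnn1 and -0.23 for Myl9. Msx1 had medians below 0 with all 7, from -0.20 to -0.04. Medians of Smad6 were above 0 with 5 of the 7, among them Cnn1 at 0.17 and Tagln at 0.05, and below 0 with Tpm2 and Myh11. With Cnn1 and Tagln, Smad6 was above 0 in every series. Bmpr1a had medians above 0 with 5 of the 7, and was above 0 in every series with Myh11, at a median of 0.16. Id2 and Id3 were below 0 with Tagln in every series, at medians of -0.17 and -0.07. Over the 7 markers their signs were mixed, with medians above 0 for 3 with Id2 and for 4 with Id3. With the 8 mesenchymal markers Bmp4 had 4 medians above 0, from -0.12 with Twist1 to 0.26 with the collagen gene Col1a1. A sign above 0 in every series was not particular to Acta2. Bmp4 had it with Col1a1, from 0.08 to 0.30. It also had it with Tbx18 of the epicardial list, at a median of 0.21, from 0.14 to 0.37, while Tcf21 of that list had mixed signs. Msx1 had 5 of 8 above 0, from -0.07 with Col3a1 to 0.27 with the proteoglycan gene Lum.

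The genes most like each member by median correlation, among those above 0 in every series, were mostly outside the pathway. Bmp4 was closest to P4ha3, a subunit of collagen prolyl hydroxylase, at 0.29. Bmpr1a was closest to Ubap2l at 0.32 and Smad6 to Ckap4 at 0.24. Bmpr2 was closest to Prdm2 at 0.22, which fell to 0.09 given reads and genes. Id1 was closest to Id2, and Id3 to the ubiquitin gene Ubb at 0.29, just ahead of Id1. Ubb has near-identical copies, so its counts are uncertain. After Id1, Id2 was closest to Rchy1 at 0.30, which fell to 0.16 given reads and genes. The pair Id2 and Id3 had a higher median, 0.33, and was left out here only because it was at -0.06 in series 1.

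Single markers of other cell types were common and sets of them were less so. At least 1 epicardial marker was detected in 69.7% of cells, and at least 1 cardiomyocyte marker in 38.1%, endothelial marker in 34.01%, neuron marker in 27.2% and glial marker in 23.1%. At least 3 markers were found in 6, 3, 4, 0 and 11 cells in the same order, with 3 epicardial, 7 cardiomyocyte, 4 endothelial, 4 neuron and 6 glial markers in the table. Melanocyte and blood lists had too few detected markers for such a count, with at least 1 marker in 12 and 13 cells. All 4 cells with endothelial markers had Bmp4, both receptors, Smad6 and the 3 Id genes. Of the 11 cells with glial markers, 10 had Bmpr1a, 10 had Id3 and 2 had Bmp4. None of the cells in these 4 sets had Msx1 or Msx2. Their part in the values above was not tested.

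The wider pathway was described from a list of 61 genes, of which 53 were in the table; the other 8 were not analysed here. Of the 53, 13 were detected in at least 50% of cells and 21 in fewer than 10%. Of all 15124 genes, 14.4% were detected in at least 50%. The 13 include the members Bmpr1a, Bmpr2, Smad6, Id1, Id2 and Id3, which were chosen with earlier results of these data known. Among the 44 list genes beyond the members, only Bmp1, Smad1, Smad4, Smad7, Bambi, Fstl1 and Twsg1 reached 50%. No excess over all genes is read from the count of 13. Among the ligands, Bmp1, which encodes a procollagen protease despite its name, reached 68.4% of cells and Bmp2 29.3%. Bmp2 ran from 4.17% in series 2 to 47.4% in series 3, and Bmp2 or Bmp4 was detected in 51.7% of cells. Bmp7 was detected in 1 cell. Bmp5 reached 24.1% in series 1 and was at 0 in 5 other series.

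Among the receptors, Bmpr1a and Bmpr2 had the highest shares. The type I receptor Acvr1 was detected in 35.03% of cells and Bmpr1b in 0.68%, while the type II receptors Acvr2a and Acvr2b were in 15.6% and 11.9%. Smad1 was in 51.4%, Smad5 in 49.3%, Smad9 in 8.84% and the shared partner Smad4 in 66.3%. Beside Smad6, the inhibitors Smad7 and Bambi, a decoy receptor, were in 67.01% and 71.8%.

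Secreted antagonists and modulators ranged from 1.70% to 100% of cells, with a median of 12.1%. Fstl1 was in every cell and Twsg1 in 72.8%, while Nog and Chrd, which encode noggin and chordin, were in 4.42% and 1.70%. Bmper was in 29.3% of cells overall and 67.2% in series 1. Among the targets, none outside Id1, Id2 and Id3 reached 50%: Hey1 stood at 21.1%, Id4 at 18.03% and Tbx2 at 7.48%. Of the 32 list genes detected in at least 10% of cells, Bmp4 and Crim1 had a correlation with Acta2 above 0 in every series, and none had one with Sox9. The shares over all tested genes were 4.41% for Acta2 and 0.542% for Sox9, so these counts set the list little apart.

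**Figure D5:**
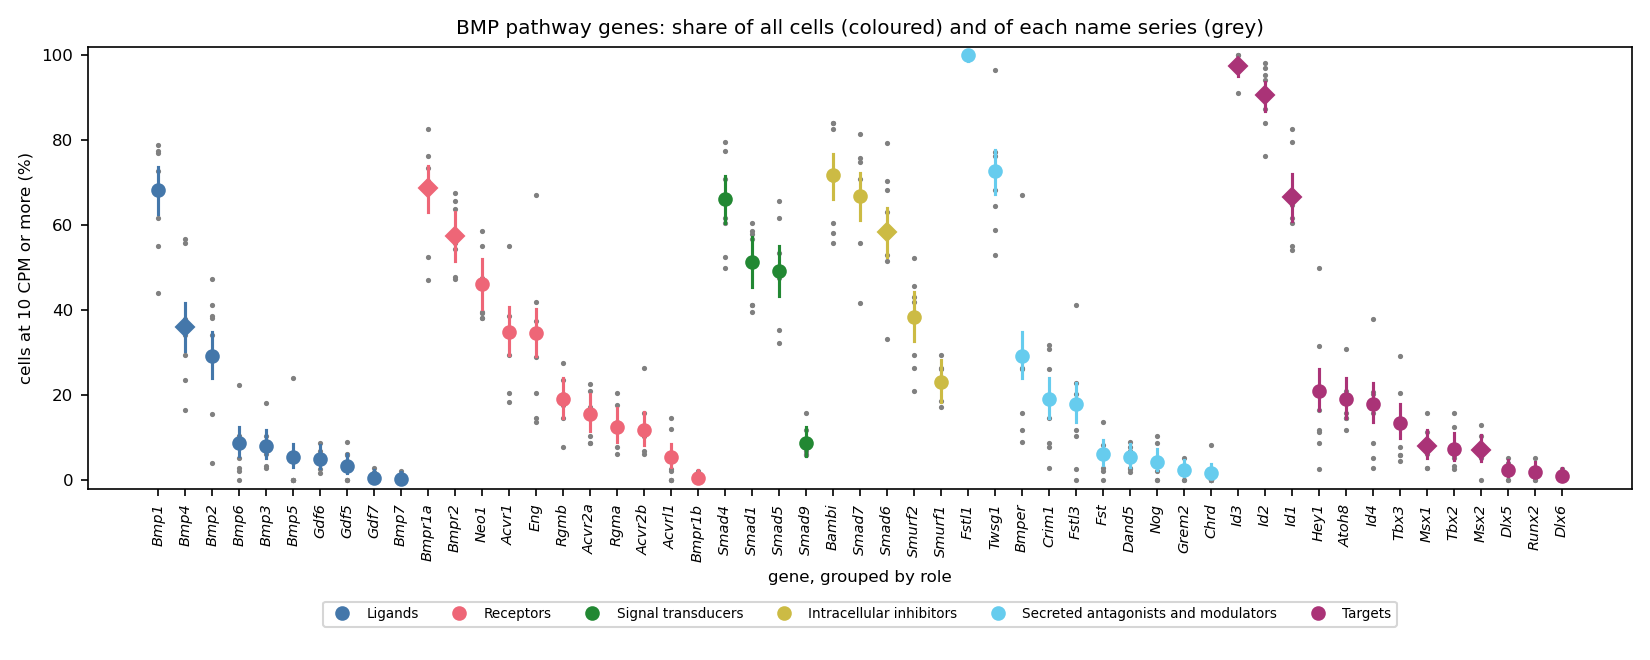
Share of cells at 10 CPM or more for the 53 pathway genes in the table, grouped by role. Coloured marks are all cells with exact 95% intervals, diamonds are the 9 genes and grey points are name series. Ligands other than Bmp1, Bmp4 and Bmp2 lie below 10% over all cells.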

How the data were processed

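Raw counts per gene were deposited by the authors as whole numbers for 15124 genes in 294 cells. A second table deposited by the authors, marked SCT, holds a normalised score for 14051 genes and was used only as an alternative. The submitters' processing notes name HISAT2 2.1.0, featureCounts, Seurat and mm10 without saying which step used which. The annotation is not given in the sources used here. Per the labels' protocols, EYFP-positive cells were captured on Fluidigm C1 chips and photographed, and full-length cDNA was made with a SMARTer v4 kit. No molecular identifier is named, so reads are not independent molecules. No doublet caller was run, since captures were photographed.

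Counts were scaled to CPM, with detection at 10 CPM. Correlations are Spearman's, of log2(CPM + 1), within each name series of cells. The product of shares was taken within each series and summed. Genes entering the background were detected in at least 10% of cells (8853 genes). The text names the 9 genes, the pathway list, Acta2, Sox9, the markers, and per member detected in at least 30% of cells up to 3 genes of highest median correlation that were above 0 in every series. The members and lists were chosen with earlier results of these data known. Loci and exon lengths came from GENCODE M21 on GRCm38, the assembly that mm10 names, and promoters from RefSeq on GRCm38.p6. The scripts were tested on simulated data and used Python 3.11.15, numpy 2.4.6, pandas 2.3.3, SciPy 1.17.1 and matplotlib 3.10.9. Alternatives were other detection levels, the SCT table, thinned reads, leaving out each series, all cells as 1 set, partial correlations, another pseudocount, no filter and no length scaling.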

Additional observations from a re-analysis of the deposited data

How the results depend on the processing

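Of 434 values under alternatives, 37 moved by more than their interval, their spread over series or 1.5 times a count. Of 22 correlations, 10 had a value of the other sign under an alternative (42 values; 3 of the correlations are with Acta2 and 7 with Sox9); each had a size of at most 0.08 as reported, and Id2 with Acta2 went to -0.16 with all cells as 1 set. The median share of cells with a member, 58.5%, was 74.8% at 1 read, 36.4% at 100 CPM and 76.9% in the SCT table, and 56.2% to 63.4% with each name series left out. Pathway genes in at least 50% of cells went from 13 to 5 at 100 CPM (12 to 14 with a series left out). Pairs above the product went from 31 to 20 at 100 CPM (26 to 31). Members highest in series 1 went from 3 to 6 at 1 read, 1 at 100 CPM and 6 in the SCT table (3 to 4); this count has no value without series 1. Members with a median above 0 with Acta2 went from 7 to 4 in partial correlations (5 to 7), and with Sox9 from 7 to between 3 and 8. Apart from what a higher or lower detection level does by construction, the cause was not tested. Thinning left out 15 cells. Without a filter on low values, 64.2% of genes had a median above 0 with Acta2 and 46.3% with Sox9. No paired analysis was possible because all cells form 1 group. Msx1 and Msx2 rest on 24 and 21 cells.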
